A study of Mus musculus with 2 samples.

Results

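Cells whose deposited label was left atrium (LA) were set against cells labelled right atrium (RA), within the 52 of 332 labelled multichamber cells that carried enough RNA to be compared. The whole series holds 404 labelled cells. A cell was taken if it had at least 5000 gene UMIs (unique molecular identifiers, 1 per captured RNA molecule, spike-in RNA left out). A cell was left out if Msln, Upk3b, Upk1b and Muc16, genes of the mesothelium that covers the heart, together took over 0.5% of its nuclear-encoded UMIs. Cells were thus selected on their measured depth and mesothelial RNA. This kept 34 of 71 LA wells and 18 of 69 RA wells. Of the LA wells, 36 had at least 5000 UMIs and 2 were left out for mesothelial RNA. The same rule kept 89 of 96 wells labelled left ventricle (LV) and 87 of 96 labelled right ventricle (RV).

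The cells were unfixed heart muscle cells of wild-type C57BL/6 mice, about 3 months old per the series' design text. Hearts were digested on a perfusion apparatus, and single cells were sorted into plates by a cytometer for large particles. RNA was counted from its 3' end, with a 6-base barcode for each cell in 4 libraries, A to D. Both groups have the same genotype, strain and age per the labels and the design text. They differ in the chamber named for the well and in the mix of libraries. Within each library they also differ in plate row. No animal is named for any cell, and nothing says how many hearts were pooled. Each label is therefore 1 pool, no difference was tested, and every interval is an exact 95% interval that covers counting error only.

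The atria fill the ventricles, and their muscle cells are smaller than ventricular ones and carry their own set of contractile and secreted proteins. Mouse atrial muscle uses the light chains Myl7 and Myl4, the calcium pump regulator Sln and the hormone precursor Nppa, where ventricular muscle uses Myl2 and Myl3. The right atrium houses the sinus node, whose cells use Shox2, Isl1 and the pacemaker channel Hcn4.

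The RNA of these cells carried little of that atrial set. Nppa had 0 UMIs in LA and 0 in RA cells, where 3 UMIs would be 4.07 CPM (counts per 1000000 nuclear-encoded UMIs) in the LA pool and 7.17 CPM in the RA pool. Myl7 had 10 UMIs in LA cells, in 6 of 34, which is 13.6 CPM (interval 6.51 to 24.95), and 0 in RA cells, beside 1.17 CPM in LV cells and 0 UMIs in RV cells. Sln had 5 UMIs in LA cells (6.78 CPM) and 0 in RA cells, beside 0.390 CPM in LV and 1.01 CPM in RV cells. Myl4 had 2 in LA cells (2.71 CPM) and 0 in RA cells, beside 6.24 CPM in LV and 4.02 CPM in RV cells. The kinase gene Sbk2 had 1 UMI in LA cells and 15 in RA cells, where it stood at 35.9 CPM (interval 20.1 to 59.2), beside 5.07 CPM in LV and 6.03 CPM in RV cells. Stard10, a lipid transfer protein gene of the list, stood at 46.1 CPM in LA and 55.0 CPM in RA cells, beside 25.8 CPM in LV and 36.2 CPM in RV cells. Thus Myl7 and Sln in LA, Sbk2 in RA and Stard10 in both labels stood above both ventricular labels, on few UMIs. The intervals overlapped those of RV for Sln and Stard10 and not for Myl7 and Sbk2. For Stard10 the LA interval (31.95 to 64.47 CPM) also overlapped that of LV (19.92 to 32.77 CPM). Gja5, connexin 40 of atrium and conduction system, had 12 UMIs in LA cells (16.3 CPM) and 0 in RA cells, beside 22.6 CPM in LV and 1.68 CPM in RV cells. The deepest gene of the list, Pam, which amidates peptide hormones, stood at 320 CPM in LA and 418 CPM in RA cells, beside 400.4 CPM in LV and 383 CPM in RV cells. Of the other atrial genes, Kcnj3 had 71 UMIs in LA and 17 in RA cells and is set out below. Dkk3 had 3 UMIs in LA and 2 in RA cells, and Kcna5 had 2 in LA and 0 in RA cells. Tbx5 had 5 UMIs in LA (6.78 CPM) and 3 in RA cells (7.17 CPM), beside 30.0 CPM in LV and 19.8 CPM in RV. Nr2f2 had 1 UMI in LA (1.36 CPM) and 0 in RA cells, beside 9.37 CPM in LV and 13.1 CPM in RV. Tbx5 and Nr2f2 thus stood below both ventricular labels. Shox2, Isl1 and Nr2f1 were at 0 UMIs in both pools, and Hcn4 had 7 UMIs in LA and 4 in RA cells. The ventricular light chains were among the most abundant messages: Myl2 stood at 11280 CPM in LA and 12191 CPM in RA cells, beside 10496 CPM in LV and 10337 CPM in RV cells. Myl3 stood at 10473 CPM in LA and 11699 CPM in RA cells. The protocol in the labels describes cutting out and mincing the ventricle and does not say how atria were taken. The absence of Nppa and the level of Myl2 and Myl3 go against the chamber named in the labels. LA and RA below name wells by their label only.

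The groups also differed in layout. In libraries A and B the LA label sat in rows 5 and 6 of the barcode plate and the RA label in row 7, and in libraries C and D this was swapped. Within a library, label and plate row cannot be told apart. The rule kept 29 of 48 LA wells in rows 5 and 6 (60.4%, interval 45.3 to 74.2%) and 14 of 47 RA wells there (29.8%, interval 17.3 to 44.9%). In row 7 it kept 5 of 23 LA wells (21.7%) and 4 of 22 RA wells (18.2%). The kept LA cells numbered 13 in library A, 16 in B, 2 in C and 3 in D, and the kept RA cells 2 in A, 2 in B, 10 in C and 4 in D. A within-library ratio can thus rest on 2 cells of a label. Of the nuclear-encoded UMIs of the LA pool, library A gave 41.7% and B 45.2%. Library C gave 72.1% of those of the RA pool. A pooled ratio thus also sets libraries against each other, and its interval does not cover this. Of 30 different 6-base barcodes among the kept cells, 13 recurred in at least 2 libraries and 9 under both labels. No full cell name was shared by libraries.

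**Figure D1:**
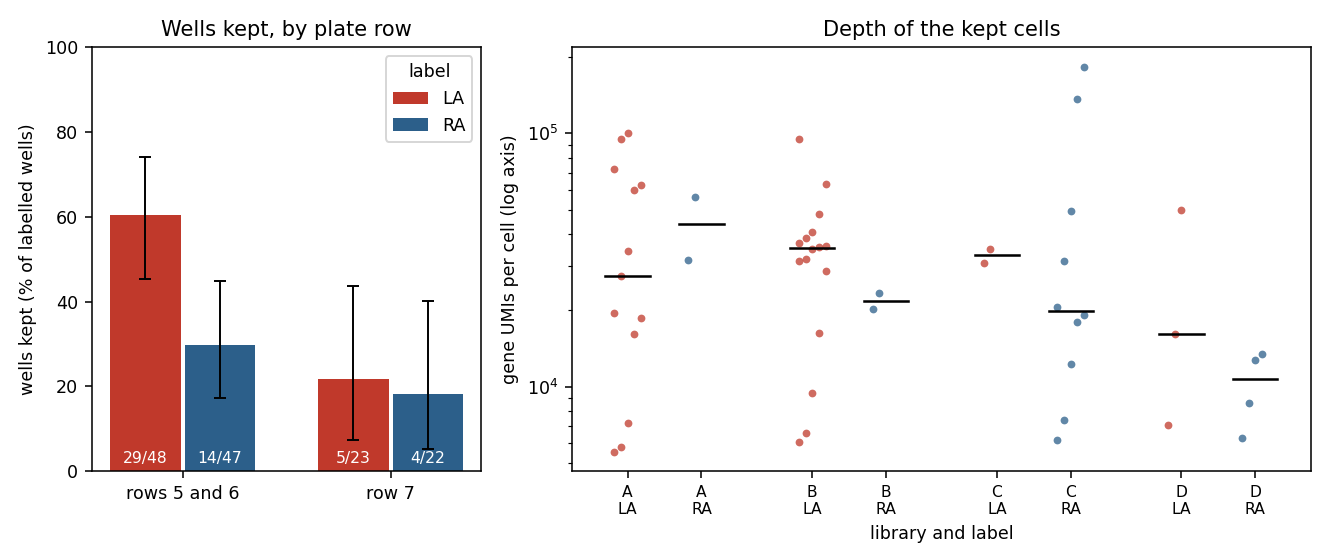
Left, the share of labelled wells that were kept, by barcode plate row and label, with bars from 0, exact 95% intervals and the counts printed in the bars. Right, gene UMIs of each kept cell on a log axis by library and label, each point a cell and each line a median. LA wells of rows 5 and 6 were kept most often (29 of 48), and the 2 deepest cells are RA cells of library C.

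The LA pool summed to 1222625 gene UMIs and the RA pool to 657290, of which 736944 in LA and 418246 in RA were nuclear-encoded. Depth chose the cells, so it is given as a description. The kept LA cells had 5528 to 100653 UMIs with a median of 33060.5, and the kept RA cells 6148 to 183391 with a median of 19706.5. The cells nearest the UMI limit were 2 LA cells of library A with 5528 and 5786 UMIs inside it, and 2 RA cells with 4778 and 4841 UMIs outside it. At the mesothelial limit the nearest cells inside had 0.0863% in an LA cell of library B and 0.147% in an RA cell of library C. The nearest outside were LA cells with 0.899% and 0.919%. The 2 deepest RA cells, both of library C, had 183391 and 137115 UMIs. These 2 cells held 49.6% of the nuclear-encoded RA UMIs, where the 2 deepest LA cells held 16.0% of the LA ones. Values without the 2 RA cells are given below for Ttn, Trdn, CT010467.1, Pecam1 and the red cell and sarcomere lists. For other genes, Malat1 included, they are not printed and the size of a ratio may rest on these cells. At an even 5000 UMIs the median number of genes per cell was 1297 in LA and 1343 in RA cells, beside 1268 in LV and 1256 in RV cells.

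Of 4564 nuclear-encoded genes with at least 30 UMIs over both pools, 877 stood higher in LA than RA cells by 1.5-fold or more, which is 19.2% of those measured. Another 889 were at least 1.5-fold lower, which is 19.5%. These ratios are log2(CPM + 5) in LA minus RA, which understates the ratio of low genes. The share past 1.5-fold was 47.7% among genes with 30 to under 100 UMIs and 26.4% with 100 to under 300 UMIs. It was 13.2% among the next 365 genes by UMIs and 5.81% among the 155 with the most. The interval of the fold lay wholly past 1.5-fold for 198 genes on the LA side and 219 on the RA side. One cell gave over 50% of the UMIs of the higher pool for 309 of the 889 genes lower in LA, and for 36 of the 877 genes higher in LA. The median log2 ratio of all measured genes was -0.02 in the pools. Within libraries it was 0.15 in A, 0.45 in B, -0.47 in C and 0.00 in D.

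Agreement between the 4 libraries was scarce. Of the 4564 genes, 107 exceeded 1.5-fold on the LA side of the pools and lay on that side of 0 in every library (2.34%), and 115 were so on the lower side (2.52%). Regardless of size, 242 genes (5.3%) lay above 0 and 193 (4.23%) below 0 in all 4 libraries, together 9.53%. The genes whose signs instead matched the plate row numbered 545, or 11.9%. They were higher in LA in libraries A and B and lower in C and D, or the reverse. Among the 520 genes with at least 300 UMIs, the signs of 52 matched the label in all 4 libraries (10%) and those of 73 matched the row (14%). Signs that fall at random also give both patterns. The shares were not set against that level, so neither is read as an effect of label or row.

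**Figure D2:**
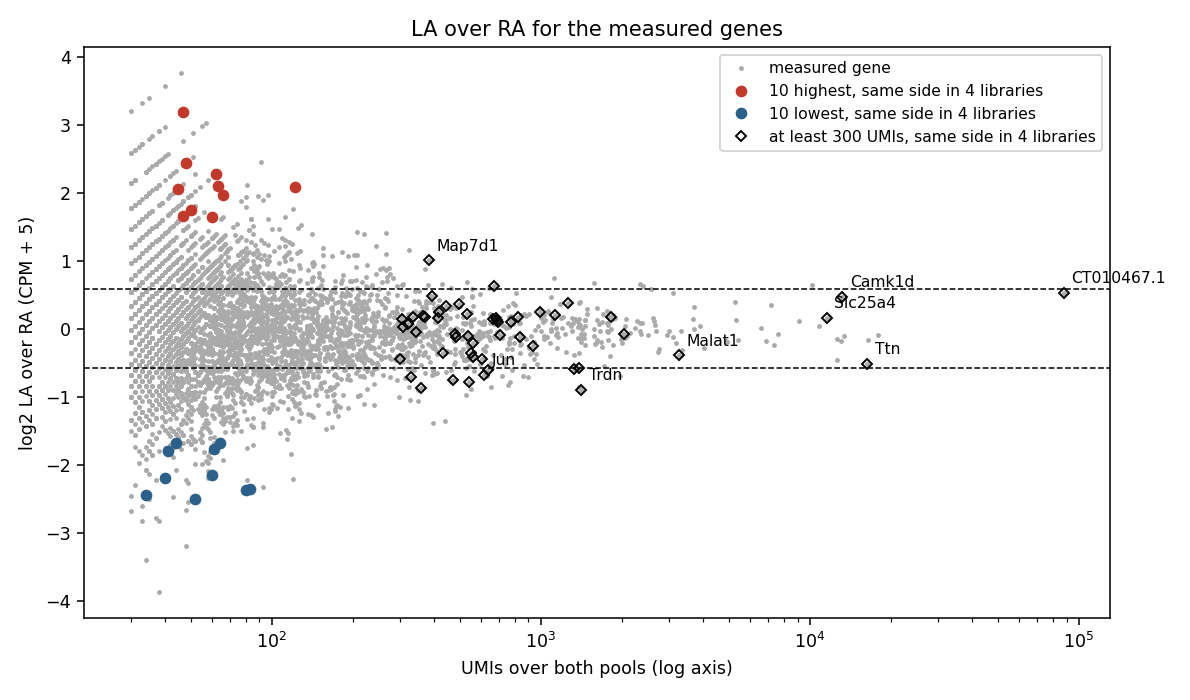
Log2 ratio of LA over RA against UMIs summed over both pools (log axis) for the 4564 measured genes, with dashed lines at 1.5-fold. Coloured points are the 10 highest and the 10 lowest genes that lay on the same side in 4 libraries; diamonds are the 52 genes with at least 300 UMIs on the same side in 4 libraries. The spread narrows with UMIs, and the deepest genes lie close to 0.

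Of the abundant genes that kept to the label in every library, those with the largest ratios on the lower side were, in order, Trdn, Magi2, Sptbn1, Cdh13, Filip1, Jun, Palld and Zbtb20, with Dmd, Ttn, Neat1 and Malat1 further down. On the higher side Map7d1 and Tecr stood first, and then CT010467.1, Coq10a and Camk1d. These 52 genes were singled out after their values were seen: 32 lay above 0, of 520 with at least 300 UMIs (6.15%), and 20 below 0 (3.85%). Of the 32, 5 had a pooled ratio below 0.

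Ttn, on chromosome 2 from 76703980 to 76982547 (GRCm38), encodes titin, the giant protein that spans the sarcomere from Z-disc to M-band. It had 10910 CPM in LA and 14057 CPM in RA cells of library A, and 13098 CPM in LA and 18511 CPM in RA cells of library B. In library C it had 14265 CPM in LA and 18253 CPM in RA cells, and in library D 12315 CPM in LA and 15458 CPM in RA cells. LA was lower in each library. Over the pools the level was 0.697-fold (interval 0.676 to 0.719), from 8989 UMIs in LA and 7316 in RA cells. Single cells overlapped widely: LA cells had 2372 to 22860 CPM with a median of 12748, and RA cells 3534 to 22538 with a median of 16977. Of the 34 LA cells, 30 lay below the RA median. The log2 ratio was -0.52 in the pools and -0.25 without the 2 deepest RA cells. The LV pool stood at 15591 CPM, between the LA and RA pools, and the RV pool at 17530 CPM, level with the RA pool. The median cell stood at 13305 CPM in LV and 14493 CPM in RV, both below the RA median.

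Trdn, on chromosome 10 from 33080554 to 33476709, encodes triadin, which anchors calsequestrin at the calcium release channel. It had 738 CPM in LA and 1007 CPM in RA cells of library A, 1132 CPM in LA and 2153 CPM in RA cells of B, and 1078 CPM in LA and 1899 CPM in RA cells of C. In library D it had 627 CPM in LA and 1004 CPM in RA cells. The LA pool was at 0.535-fold (interval 0.481 to 0.594; 684 UMIs in LA and 726 in RA cells). Cells ranged from 198 to 1757 CPM in LA, median 963, and from 477 to 2807 CPM in RA, median 1382, so they overlapped. The log2 ratio was -0.90 in the pools, -0.67 without the 2 deepest RA cells and -0.49 with each cell weighted equally.

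Malat1, on chromosome 19 from 5795690 to 5802672, is a non-coding transcript that stays in the nucleus. It had 2188 CPM in LA and 3246 CPM in RA cells of library A, and 2783 CPM in LA and 3471 CPM in RA cells of library B. In library C it had 2706 CPM in LA and 3301 CPM in RA cells, and in library D 2756 CPM in LA and 3668 CPM in RA cells. The LA pool was at 0.760-fold (interval 0.709 to 0.815), and 24 of 34 LA cells lay below the RA median of 2948 CPM. Cells overlapped, with 681 to 4286 CPM in LA and 477 to 6042 CPM in RA. Neat1, the RNA around which nuclear paraspeckles form, was at 0.746-fold (interval 0.629 to 0.885; 318 UMIs in LA and 242 in RA cells). For Malat1 the pools of LV (3447 CPM) and RV (3756 CPM) lay with or above RA.

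**Figure D3:**
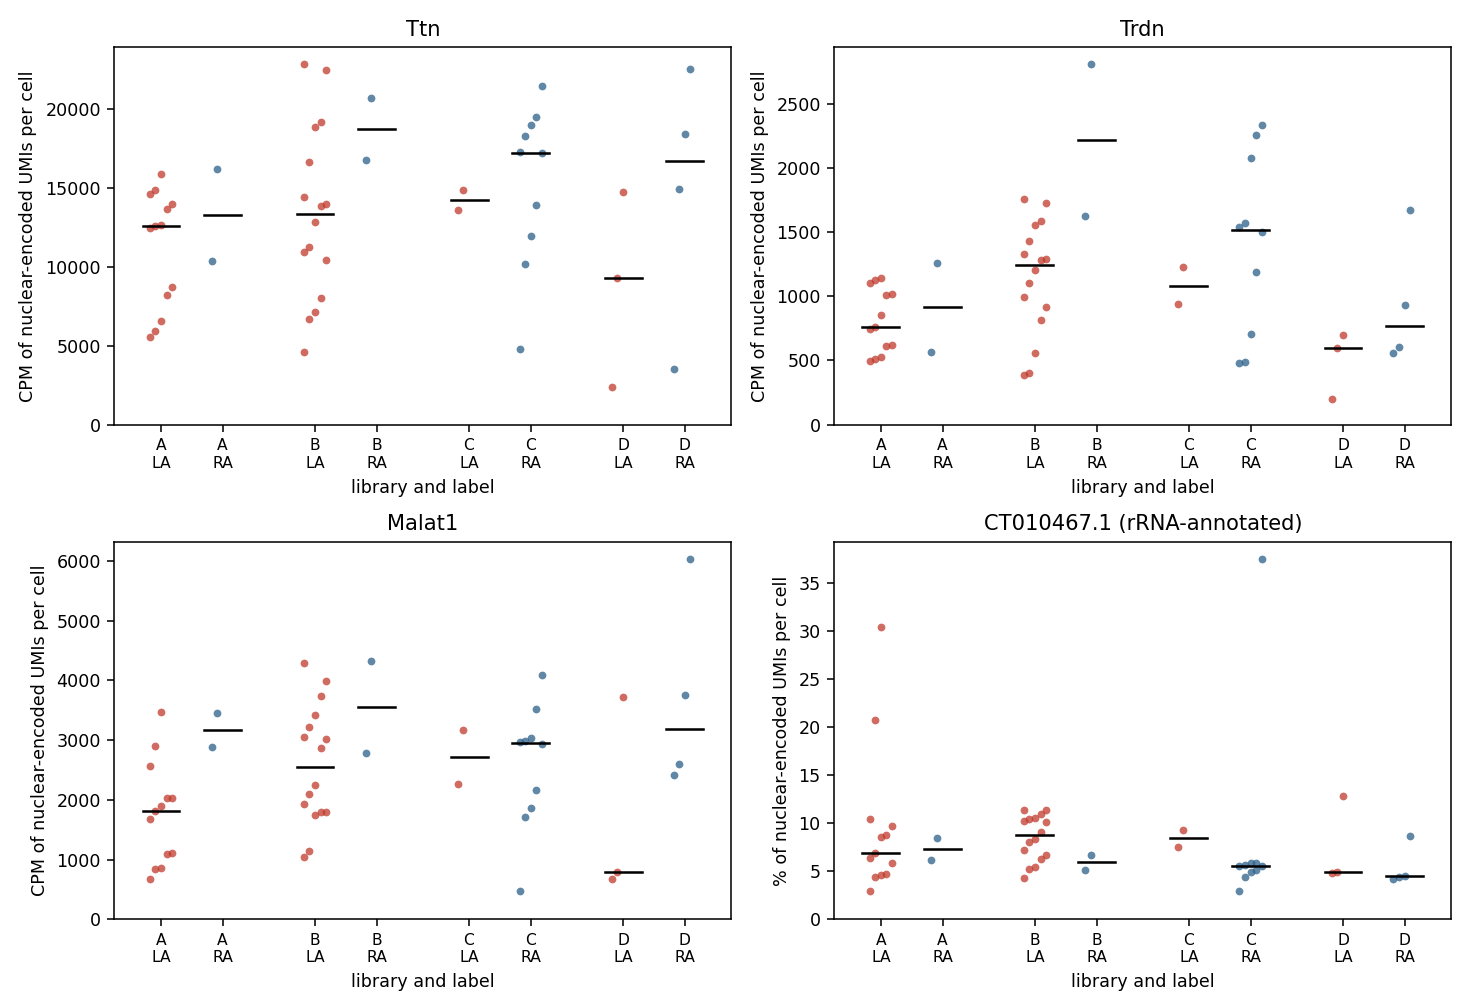
Level per cell of Ttn, Trdn and Malat1 (CPM of nuclear-encoded UMIs) and of CT010467.1 (% of nuclear-encoded UMIs), by library with LA left of RA. Each point is a cell and each line a median; the pooled LA value is lower than RA in every library for the first 3 genes and higher for the fourth, while single cells overlap.

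Another 6 deep genes on the lower side in 4 libraries were at least 1.5-fold lower in the LA pool. Magi2, a membrane scaffold, was at 0.543-fold (interval 0.439 to 0.671) and Cdh13, a cadherin anchored in the membrane, at 0.587-fold (0.488 to 0.707). Sptbn1, a spectrin of the membrane skeleton, was at 0.574-fold (0.483 to 0.682), and Filip1, which binds filamins, at 0.603-fold (0.483 to 0.753). Palld, the actin-bundling palladin, was at 0.654-fold (0.558 to 0.767) and Zbtb20, a zinc finger repressor, at 0.664-fold (0.595 to 0.740). Below that size were Dmd, which encodes dystrophin, at 0.671-fold (0.603 to 0.747), and Rbm20, a splicing regulator of titin, at 0.728-fold (0.618 to 0.857).

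Gene span was compared over the same genes. Of the 20 deep genes below 0 in 4 libraries, 10 span at least 100 kb of genome, as do 6 of the 32 above 0 and 18.7% of the 520 deep genes. The median span was 121 kb for the 20 and 17.0 kb for the 32. Over all deep genes the median log2 ratio was -0.23 for the 97 that span at least 100 kb, -0.05 for the 205 of 10 to 100 kb and -0.004 for the 217 under 10 kb. Of the 97 long ones, 20 were at least 1.5-fold lower and 2 higher in LA, where 7.69% of the 520 deep genes were lower by that much and 3.27% higher. Among all 967 measured genes of that span, less deep ones included, 233 were lower and 180 higher, with a median of -0.11, beside 19.5% lower and 19.2% higher over all measured genes. The longest class had the lowest median in each library, but by little in A, at -0.080 beside -0.078 for the shortest. The longest and shortest classes stood at -0.16 and 0.17 in B, -0.29 and -0.10 in C, and 0.37 and 0.64 in D. The full order did not hold in A and D, where the class of 10 to 100 kb stood above the shortest, at -0.031 in A and 0.68 in D. The summed share of all 2783 genes that span at least 100 kb was 18.2% of LA and 19.1% of RA nuclear-encoded UMIs. Its per-cell range was 12.9 to 38.9% in LA and 14.9 to 24.1% in RA cells. By library it was 18.6% in LA and 18.5% in RA cells of A, 17.9% in LA and 20.4% in RA cells of B, 19.6% in LA and 18.9% in RA cells of C, and 17.0% in LA and 22.2% in RA cells of D.

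On the other side, the nuclear gene with the most UMIs in both pools was CT010467.1, which GENCODE annotates as ribosomal RNA. It took 8.54% of nuclear-encoded UMIs in LA cells (interval 8.48 to 8.61%) and 5.92% in RA cells (5.85 to 5.99%). By library its share was 9.18% in LA and 7.0% in RA cells of A, 8.42% in LA and 6.02% in RA cells of B, 8.45% in LA and 5.74% in RA cells of C, and 5.66% in LA and 5.29% in RA cells of D. The LA share was the higher in each library. Cells ranged from 2.93 to 30.5% in LA, median 8.21%, and from 2.98 to 37.6% in RA, median 5.58%, with 1 cell of each label above 30%. The log2 ratio of CT010467.1 was 0.53 in the pools and 0.26 without the 2 deepest RA cells. In CPM it stood at 85446 in LA and 59216 in RA cells, beside 77406 in LV and 84270 in RV cells. Camk1d, a calcium-dependent kinase gene, stood at 12669 CPM in LA and 9150 CPM in RA cells, beside 11752.5 CPM in LV and 12438.5 CPM in RV cells. For both genes the LV and RV pools thus lay between RA and LA, nearer LA. In each label the highest cell for Camk1d was the highest cell for CT010467.1. Whether reads of ribosomal RNA reached Camk1d was not tested.

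Among the 32 deep genes above 0 in 4 libraries, Map7d1, which binds microtubules, and Tecr, an enzyme of very-long-chain fatty acid synthesis, were the 2 past 1.5-fold. Map7d1 had 300 UMIs in LA and 84 in RA cells, and Tecr had 492 in LA and 180 in RA cells. Slc25a4, the main ADP/ATP carrier of heart mitochondria, had 10366 CPM in LA and 9320 CPM in RA cells, a log2 ratio of 0.15. Its within-library ratios were 0.13, 0.12, 0.12 and 0.52 in A to D, and the pooled one was -0.11 with no mesothelial limit. Hadhb of fatty acid oxidation (0.09), Cycs (cytochrome c, -0.09), Uqcrc2 of complex III (0.03), Tpi1 (0.14) and Ldha (0.12) of glycolysis were also above 0 in each library, while pooled log2 ratios, given in brackets, stayed near 0.

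Of the 24 sarcomere genes measured, 1 was at least 1.5-fold higher and 4 lower in LA, where 19.2% of all measured genes were higher and 19.5% lower. Those shares fall with depth: among the 520 genes with at least 300 UMIs, 3.27% were higher and 7.69% lower. The median log2 ratio of the sarcomere genes was -0.16, beside -0.02 for all measured genes. Within libraries the median was -0.08 in A, 0.09 in B, -0.19 in C and 0.47 in D, and it was 0.00 with each cell weighted equally. It was 0.08 without the 2 deepest RA cells, so the sign of this median rested on them. Actn2, the actin crosslinker of the Z-disc, stood at 1388 CPM in LA and 2247 CPM in RA cells (0.618-fold, interval 0.565 to 0.676) and was lower in A, B and C and higher in D. Nebl, a Z-disc nebulin relative, was at 0.624-fold (0.510 to 0.763) and was likewise higher in LA in D and lower in the other libraries. Nrap, which works in myofibril assembly, was at 0.644-fold (0.526 to 0.788), and Flnc, the muscle filamin, at 0.660-fold (0.526 to 0.827). Tcap, the titin cap protein, was the higher one at 1.54-fold (1.41 to 1.69), with 2379 CPM in LA and 1540 CPM in RA cells. Within libraries its log2 ratio was -0.08 in A, -0.11 in B, 0.62 in C and 0.11 in D, and it was -0.02 without library C.

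The abundant thin filament and light chain genes differed little. Tpm1, which encodes the main cardiac tropomyosin, was at 0.935-fold (interval 0.908 to 0.964) and Tnnt2, cardiac troponin T, at 0.890-fold (0.863 to 0.919). Myl2 was at 0.925-fold (0.893 to 0.958), and 17 of 34 LA cells lay on each side of its RA median. Summed over the list, sarcomere RNA made up 10.7% of the LA pool and 12.2% of the RA pool, as shares of nuclear-encoded UMIs. The per-cell medians were 10.9% in LA and 11% in RA cells. Ranges of 1.34 to 13.9% in LA and 3.22 to 15.8% in RA cells overlapped.

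Of the 17 calcium handling genes measured, 0 were at least 1.5-fold higher and 4 lower in LA, beside 19.2% and 19.5% of all measured genes. Genes with at least 300 UMIs were higher in 3.27% and lower in 7.69%. The median of the calcium handling genes was -0.30, beside -0.02 for all measured genes. The library medians were -0.32 in A, -0.41 in B, -0.24 in C and 0.51 in D. The 4 were Trdn, Slc8a1 (the sodium-calcium exchanger, 0.562-fold, 0.486 to 0.649), Hrc (a calcium-binding protein of the sarcoplasmic reticulum, 0.613-fold, 0.535 to 0.702) and Itpr1 (an inositol trisphosphate receptor, 0.384-fold, 0.260 to 0.561, from 48 UMIs in LA and 71 in RA cells). Slc8a1 and Hrc were higher in LA in library D, and Itpr1 in library A. Atp2a2, the pump that refills the sarcoplasmic reticulum, was at 0.846-fold (0.807 to 0.887). Ryr2, the calcium release channel, was at 0.865-fold (0.805 to 0.929), Cacna1c, the L-type channel, at 0.680-fold (0.618 to 0.749), and S100a1, a calcium sensor, at 1.03-fold (0.926 to 1.15).

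Of the 12 ion transport genes measured, 0 were at least 1.5-fold higher and 4 lower in LA, with a median of -0.13; over all measured genes 19.2% were higher and 19.5% lower, with a median of -0.02. The library medians were -0.70 in A, -0.50 in B, -0.37 in C and 0.49 in D. Gja1, which encodes connexin 43 of the gap junctions, was the 1 of them lower in all 4 libraries. It had 153 CPM in LA and 240 CPM in RA cells of library A, 177 CPM in LA and 354 CPM in RA cells of B, and 229 CPM in LA and 302 CPM in RA cells of C. In library D it had 4 UMIs in each label, 76.0 CPM in LA and 175 CPM in RA cells. The pooled ratio was 0.563-fold (interval 0.434 to 0.731), and 26 of 34 LA cells lay below the RA median. Also lower were Kcnd2, the channel of the transient outward current (0.622-fold, 0.508 to 0.762), and Kcnh2, of the rapid delayed rectifier (0.568-fold, 0.259 to 1.25), which had 15 UMIs in LA and 15 in RA cells. Fxyd1, which regulates the sodium pump, was at 0.894-fold (0.727 to 1.10).

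Of the marker genes of chambers, few were deep enough to compare. Of 14 atrial genes, 3 had at least 30 UMIs, and 1 of these was past 1.5-fold, beside 38.7% of all measured genes. That gene, Kcnj3, encodes a subunit of the acetylcholine-gated potassium channel and had 71 UMIs in LA and 17 in RA cells (2.37-fold, 1.38 to 4.29). It was higher in LA in A, C and D and lower in B. Its LA level of 96.3 CPM was close to the 96.4 CPM of LV and 93.2 CPM of RV cells, and its RA level was 40.6 CPM. Pam was at 0.765-fold (0.627 to 0.936) and Stard10 at 0.839-fold (0.480 to 1.49). Of 6 ventricular genes, 1 was higher and 0 were lower, beside 19.2% and 19.5% of all measured genes. The higher one was Kcnip2 (1.65-fold, 1.19 to 2.32), an accessory subunit of the transient outward channel. Within libraries its log2 ratio was 0.75 in A, -0.41 in B, 1.05 in C and -0.66 in D, and it was -0.058 without library C. Pln, phospholamban, was at 1.06-fold (0.946 to 1.19) and Lbh at 1.01-fold (0.793 to 1.29). The 8 sinus node genes in the table together had 22 UMIs in LA and 6 in RA cells.

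**Figure D4:**
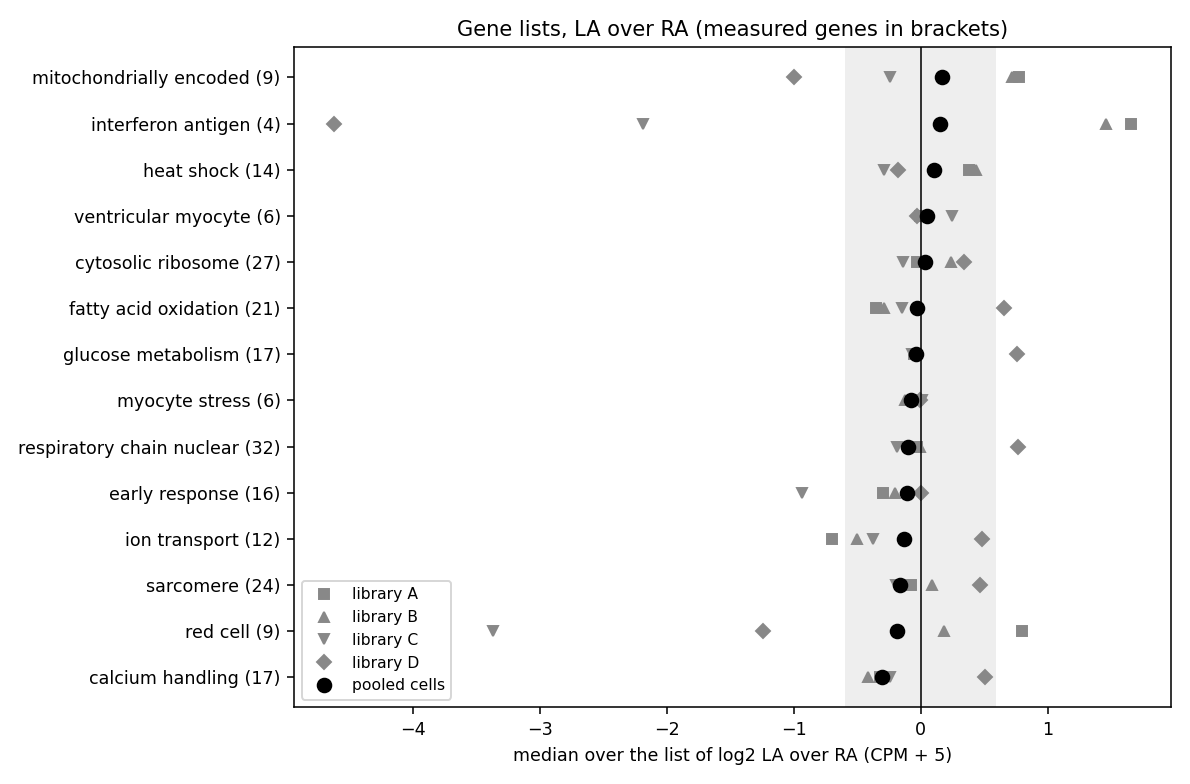
Median log2 ratio of LA over RA over each gene list with at least 4 measured genes (number in brackets), for the pooled cells (black circles) and within each library (grey symbols); the shaded band is 1.5-fold. Pooled medians lie between -0.30 and 0.17, while the libraries spread widely for the red cell, interferon and mitochondrially encoded lists.

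Mitochondrially encoded RNA took 39.7% of gene UMIs in LA cells and 36.3% in RA cells, with 18.3 to 68.8% per LA cell and 14.3 to 73.2% per RA cell. Its direction changed with the layout. In library A it took 41.3% in LA and 28.6% in RA cells, and in library B 40.4% in LA and 28.8% in RA cells. In library C it took 33.8% in LA and 37.7% in RA cells, and in library D 27.9% in LA and 44.3% in RA cells. In each library the label placed in rows 5 and 6 had the higher share and the label in row 7 the lower. Of the 9 mitochondrial genes measured, 0 were past 1.5-fold in either direction in the pools, beside 38.7% of the measured nuclear-encoded genes. The median log2 ratio of the 9 was 0.77 in A, 0.72 in B, -0.24 in C and -1.0 in D.

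The nuclear-encoded genes of energy supply had library medians below 0 in A, B and C and above 0 in D. From A to D these were -0.03, -0.002, -0.19 and 0.77 for the respiratory chain, -0.35, -0.29, -0.15 and 0.65 for fatty acid oxidation, and -0.05, -0.04, -0.07 and 0.76 for glucose metabolism. Genes with at least 300 UMIs were above 0 in D too, with medians of 0.64 under 10 kb, 0.68 for 10 to 100 kb and 0.37 for longer spans. Over all measured genes 19.2% were higher and 19.5% lower by 1.5-fold. Among those with at least 300 UMIs 3.27% were higher and 7.69% lower. Of 32 respiratory chain genes, 1 was at least 1.5-fold higher, Ndufs1 of complex I (1.57-fold, 1.24 to 1.99, higher in A and D and lower in B and C), and 0 were lower, with a median of -0.10. Atp5b was at 0.819-fold (0.769 to 0.872), Atp5a1 at 0.997-fold (0.932 to 1.07) and Atp5g1 at 1.11-fold (1.03 to 1.18), all of the ATP synthase. Cox6a2 of complex IV was at 0.885-fold (0.835 to 0.938) and Sdhc of complex II at 1.43-fold (1.19 to 1.72). Of 21 fatty acid oxidation genes, 0 were past 1.5-fold on either side, with a median of -0.03. Lpl, which frees fatty acids from lipoproteins, was at 0.802-fold (0.748 to 0.860), and Fabp3, which carries them, at 0.979-fold (0.912 to 1.05). Etfa and Etfb, which pass electrons to the respiratory chain, differed: Etfa was at 0.700-fold (0.598 to 0.819) and Etfb at 1.07-fold (0.970 to 1.19). Hadha was at 0.901-fold (0.794 to 1.02) and Hadh at 1.39-fold (1.16 to 1.68), both enzymes of beta-oxidation. Of 17 glucose metabolism genes, 0 were higher and 1 lower, Gpi1 of glycolysis (0.641-fold, 0.530 to 0.776), with a median of -0.03. Aldoa (0.940-fold), Eno3 (1.11-fold), Ldhb (0.900-fold) and Gapdh (0.994-fold) of glycolysis and lactate conversion lay within 1.5-fold in the pools. Slc2a4, the insulin-regulated glucose transporter, was at 0.678-fold (0.505 to 0.913).

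RNA of the red cell list, most of it globin RNA made by red cell precursors, took 2.35% of nuclear-encoded UMIs in LA cells (interval 2.31 to 2.38%) and 2.69% in RA cells (2.64 to 2.74%). The median cell had 1.69% in LA and 3.11% in RA, with ranges of 0.0824 to 51.6% in LA and 0.698 to 25.1% in RA cells. Over 2% of red cell RNA was found in 14 of 34 LA and 12 of 18 RA cells. These compare with median cells at 0.820% in LV and 0.701% in RV. By library the side changed as it did for the mitochondrial RNA: the list's share was 2.19% in LA and 1.31% in RA cells of A, and 1.97% in LA and 1.84% in RA cells of B. It was 0.165% in LA and 2.08% in RA cells of C, and 7.45% in LA and 15.7% in RA cells of D. Shallow cells had more of it: the median was 10.2% in 7 LA cells and 21.1% in 4 RA cells under 10000 UMIs. Above 50000 UMIs it was 0.749% in 7 LA and 1.05% in 3 RA cells. Spearman's rho of red cell share against gene UMIs was -0.38 over 34 LA cells and -0.69 over 18 RA cells. The share and the depth come from the same wells, so this is a description.

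**Figure D5:**
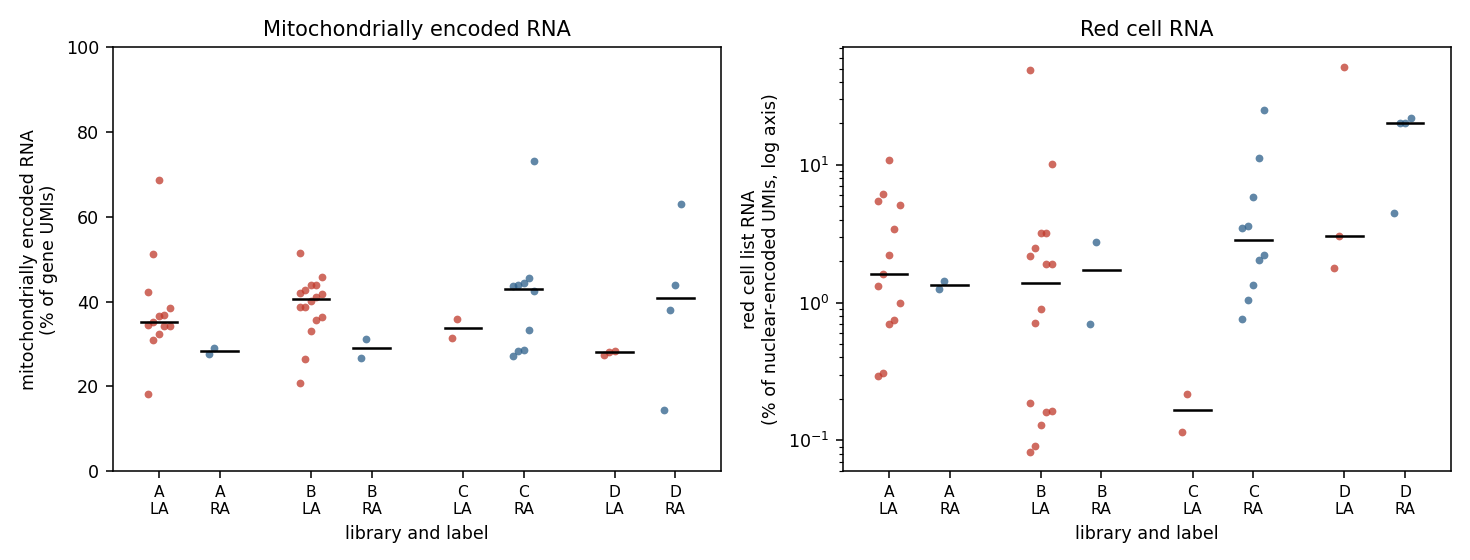
Left, mitochondrially encoded RNA as a percent of each cell's gene UMIs; right, red cell list RNA as a percent of nuclear-encoded UMIs on a log axis. Cells are shown by library with LA left of RA, each point a cell and each line a median. Mitochondrially encoded RNA is higher in LA in A and B and in RA in C and D.

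The 4 adult globin genes lay on 1 side in libraries A, C and D and were split in B. Hbb-bs, an adult beta globin, was at 10751 CPM in LA and 12208 CPM in RA cells (0.881-fold, 0.850 to 0.912), and Hbb-bt, the other, at 0.788-fold (0.729 to 0.850). Of the alpha globins, Hba-a1 was at 0.882-fold (0.840 to 0.926) and Hba-a2 at 0.886-fold (0.839 to 0.936). In library C their log2 ratios ran from -4.30 for Hba-a2 to -3.37 for Hbb-bs. In library A they ran from 0.49 for Hba-a2 to 0.80 for Hbb-bs. The RefSeq promoter windows of Hba-a1 and Hba-a2 (GRCm38.p6) match at 297 of 297 bases, at an offset of 3, and the counting could have split reads between the copies. Of 9 measured red cell genes, 1 was past 1.5-fold on the higher side and 2 on the lower side, beside 19.2% and 19.5% of all measured genes. The 2 were Slc25a37, the iron importer of mitochondria (0.589-fold, 0.331 to 1.05), and Bpgm, which makes bisphosphoglycerate (0.580-fold, 0.376 to 0.895). Their sides did not hold across libraries: from A to D the log2 ratios were 3.67, -3.54, 2.61 and -3.75 for Slc25a37 and 2.09, 2.001, -3.90 and -1.80 for Bpgm. Over all libraries Slc25a37 had 27 UMIs in LA and 26 in RA cells, and Bpgm 46 in LA and 45 in RA cells. Within a library few UMIs can thus set the size and side of such a ratio. Without library D Slc25a37 was at 0.82, and at 20000 UMIs per cell or more Bpgm was at 0.38. Alas2, which starts haem synthesis, was at 0.783-fold (0.473 to 1.31) and Fech, which ends it, at 1.02-fold (0.748 to 1.39). Below the minimum, Slc4a1, the anion exchanger, had 5 in LA and 9 in RA cells.

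The 250 bases before the start of 2 of these globin genes and of Jun, described next, are shown because the globin genes make up most of the list whose side changed between libraries, and Jun was lower in LA in all of them. Capitals in the globin genes mark the letters CACCC (the CACCC box), the CCAAT box, spelled as named, and the TATA box, searched as TATAA. Capitals in Jun mark the CCAAT box and an AP-1-like site, searched as TGACNTCA. Both strands were searched. No match overlapped another. The promoters are read on the gene's strand, from RefSeq on GRCm38.p6: Hbb-bs at chr7:103827929-103828178 (minus), Hba-a1 at chr11:32283422-32283671 (plus) and Jun at chr4:95052223-95052472 (minus).
Hbb-bs: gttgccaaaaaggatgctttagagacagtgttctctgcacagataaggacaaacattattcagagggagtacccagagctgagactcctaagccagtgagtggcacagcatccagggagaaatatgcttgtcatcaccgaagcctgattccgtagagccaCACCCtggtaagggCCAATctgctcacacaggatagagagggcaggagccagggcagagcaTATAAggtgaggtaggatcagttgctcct
Hba-a1: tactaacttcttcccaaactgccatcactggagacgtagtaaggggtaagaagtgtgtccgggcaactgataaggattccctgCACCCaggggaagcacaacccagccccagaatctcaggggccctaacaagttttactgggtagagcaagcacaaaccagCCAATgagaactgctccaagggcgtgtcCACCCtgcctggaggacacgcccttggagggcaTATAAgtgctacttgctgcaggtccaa
Jun: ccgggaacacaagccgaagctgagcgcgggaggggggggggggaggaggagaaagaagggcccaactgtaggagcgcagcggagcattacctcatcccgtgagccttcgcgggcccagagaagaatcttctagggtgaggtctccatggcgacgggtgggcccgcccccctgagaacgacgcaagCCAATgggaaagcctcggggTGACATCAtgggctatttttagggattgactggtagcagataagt

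Over the 32851 promoter windows of the same length in that table, CACCC was found in 52.0%, CCAAT in 33.8%, TATAA in 22.8% and TGACNTCA in 7.49%. The first 3 stood together in 3.28%. These matches describe the letters of the windows and say nothing of a factor being bound there.

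Among 16 early response genes, which cells switch on within minutes of a stimulus such as digestion, 4 were at least 1.5-fold higher and 2 lower in LA, beside 19.2% and 19.5% of all measured genes, with a median of -0.10. Jun, an AP-1 subunit, was the 1 lower in each of the 4 libraries and past 1.5-fold. It had 536 CPM in LA and 800 CPM in RA cells of library A, 387 CPM in LA and 1286 CPM in RA cells of B, and 252 CPM in LA and 643 CPM in RA cells of C. In library D it had 304 CPM in LA and 393 CPM in RA cells. The pooled ratio was 0.622-fold (interval 0.529 to 0.731). Egr1 and Ier3 were also below 0 in the 4 libraries, at pooled log2 ratios of -0.07 for Egr1 and -0.57 for Ier3. Fosb was the other lower gene (0.459-fold, 0.228 to 0.914). Ier2 (2.5-fold, 1.56 to 4.18), Zfp36 (1.92-fold, 1.26 to 3.01), Ier5 (1.83-fold, 1.12 to 3.10) and Dusp1 (1.70-fold, 1.11 to 2.69) were higher in the LA pool, and 0 of these 4 were so in every library. Dusp1 was at -0.27 on the log2 scale without library C. Fos was at 0.837-fold (0.683 to 1.03), Atf3 at 0.774-fold (0.616 to 0.973) and Btg2 at 0.754-fold (0.599 to 0.951).

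Of 14 heat shock genes, 2 were higher and 2 lower by 1.5-fold, beside 19.2% and 19.5% of all measured genes, with a median of 0.11. Hspa1b, an inducible HSP70, had 35 UMIs in LA and 6 in RA cells (3.31-fold, 1.38 to 9.63) and was higher in the 4 libraries. It was seen in 19 of 34 LA and 4 of 18 RA cells. Its near-identical copy Hspa1a was at 0.633-fold (0.360 to 1.12), with 29 UMIs in LA and 26 in RA cells, and the counting could have split reads between them. Hsph1 was at 1.77-fold (1.11 to 2.94) and Hspb1 at 0.654-fold (0.567 to 0.755). The abundant Cryab (0.978-fold), Hsp90ab1 (0.958-fold) and Hspb6 (1.10-fold) were within 1.5-fold in the pools, Hspb8 was at 1.3-fold (1.12 to 1.52), and Hspb7 at 1.3-fold (0.860 to 2.01). Of 6 stress genes of the myocyte, 1 was higher and 2 lower, again beside 19.2% and 19.5% of all measured genes. Ankrd1, a stretch-induced titin-binding protein, was at 0.615-fold (0.530 to 0.714), but at 0.47 on the log2 scale without library C. Fhl1, a muscle LIM protein, was the higher one at 1.74-fold (0.954 to 3.36), but at -0.14 without library C. Mt1 (0.936-fold), Ankrd23 (0.986-fold) and Nppb (0.955-fold) were within 1.5-fold in the pools, and 0 of these were so in every library. From A to D the log2 ratios were -0.27, 0.21, 0.49 and 2.06 for Mt1, 1.31, 2.28, -0.23 and -2.14 for Ankrd23, and 1.76, -0.53, -0.18 and 2.26 for Nppb.

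Of 27 genes of the cytosolic ribosome, 2 were higher and 1 lower by 1.5-fold, beside 19.2% and 19.5% of all measured genes, with a median of 0.03. They were Rpl3 (2.03-fold, 1.35 to 3.13), Rpl13a (1.51-fold, 1.25 to 1.83) and Rps6 (0.611-fold, 0.464 to 0.804). Rps6 and Rpl37a (0.915-fold, 0.760 to 1.11) were below 0 in the 4 libraries. Rps2 was at 1.31-fold (1.17 to 1.47), Rplp0 at 1.08-fold (0.965 to 1.21) and Rplp1 at 0.992-fold (0.875 to 1.12). Kcnq1ot1, the third nuclear RNA measured, was at 3.22-fold (1.33 to 9.37), from 34 UMIs in LA and 6 in RA cells. Of 4 interferon and antigen presentation genes, 1 was higher and 0 lower, again beside 19.2% and 19.5% of all measured genes. The higher one was H2-D1 (2.84-fold, 1.07 to 9.49). B2m was at 1.27-fold (0.784 to 2.10), H2-K1 at 0.777-fold (0.414 to 1.48) and Isg20 at 0.993-fold (0.558 to 1.82).

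RNA of other heart cells was scarce in both pools. The 12 endothelial markers summed to 140 UMIs in LA and 68 in RA cells, the 10 fibroblast markers to 90 in LA and 37 in RA cells, and the 9 mural markers to 207 in LA and 142 in RA cells. The 10 macrophage markers summed to 13 UMIs in LA and 18 in RA cells. Few reached 30 UMIs. Fabp4 (0.315-fold, 0.156 to 0.614) and Pecam1 (1.64-fold, 0.745 to 3.98) of endothelium were past 1.5-fold on opposite sides. Cytl1 of endocardium (4.77-fold, 1.89 to 15.4) and Gsn of fibroblasts (2.27-fold, 1.12 to 5.09) were higher in the pools. Without library A Cytl1 was at -0.64 and Gsn at -0.082 on the log2 scale, and without library C Pecam1 was at -0.22. Fabp4 was lower in A, C and D and higher in B. Vwf (0.881-fold), Dcn (1.21-fold), Acta2 (0.825-fold) and Abcc9 (0.851-fold) were not past it. At 0 UMIs in both pools stood S100a8 and S100a9 of neutrophils and Adipoq and Cidec of adipocytes. The part of these cells in the results above was not tested.

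Both pools held RNA of both sexes. Xist, transcribed from the inactive X of females, had 30 UMIs in LA and 41 in RA cells (0.415-fold, 0.250 to 0.681), and Ddx3y of the Y chromosome 30 in LA and 10 in RA cells (1.70-fold, 0.810 to 3.90). Of the 41 RA UMIs of Xist, 39 were in library C. Xist without a Y-linked UMI was found in 7 LA and 7 RA cells, Y-linked RNA without Xist in 6 LA and 2 RA cells, and both in 10 LA and 2 RA cells. Uty and Kdm5d, also Y-linked, had 1 UMI each in LA and 0 in RA cells. The sex of the animals is not given for any cell, and its part in the ratios was not tested.

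The genes with the largest ratios on the same side in 4 libraries rested on few molecules. The 10 highest with at least 50 CPM in the LA pool and no cell above 50% of it were Abhd16a, Bcl9, Fam173a, Plxna2, Ubxn6, Zfp704, Ap2m1, Trip12, Plin2 and Asb18. Abhd16a, a lipid hydrolase, had 46 UMIs in LA and 1 in RA cells, a ratio of 26.1 with a counting interval of 4.46 to 1053. Bcl9, a coactivator of Wnt signalling, had 45 in LA and 3 in RA cells (8.51-fold, 2.73 to 42.8). Ubxn6 had the most UMIs, 109 in LA and 13 in RA cells (4.76-fold, 2.67 to 9.22). Plxna2, a semaphorin receptor, was at 5.39-fold (2.33 to 15.3), Ap2m1 of the clathrin adaptor at 4.78-fold (2.18 to 12.4), and Plin2, which coats lipid droplets, at 3.88-fold (1.64 to 11.2). The other 4 ran from 3.69-fold for Asb18 (1.74 to 8.99) to 6.47-fold for Fam173a (2.62 to 20.7), with Trip12 at 4.16-fold (1.77 to 12.0) and Zfp704 at 5.82-fold (2.11 to 22.4).

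Of the 10 lowest, 2 were predicted genes and are not named. The others were Rnf167, Zfp950, Appl2, Apc, Iars2, Mmp15, Urod and Pi4k2a. Rnf167, a ubiquitin ligase, had 10 UMIs in LA and 42 in RA cells (0.135-fold, 0.0605 to 0.274). Zfp950, a zinc finger gene, had 6 UMIs in LA and 28 in RA cells (0.122-fold, 0.0412 to 0.299). Appl2, an endosomal adaptor, had 18 UMIs in LA and 62 in RA cells (0.165-fold, 0.0917 to 0.282). Apc, which holds back Wnt signalling, was at 0.189-fold (0.0980 to 0.346), Iars2, the mitochondrial isoleucyl-tRNA synthetase, at 0.235-fold (0.109 to 0.475), and Mmp15, a membrane-bound matrix protease, at 0.257-fold (0.141 to 0.451). Urod of haem synthesis was at 0.277-fold (0.156 to 0.477) and Pi4k2a, a phosphatidylinositol kinase, at 0.265-fold (0.130 to 0.515). In libraries where a label has 2 to 4 cells, 1 UMI of such a gene can set the side of its ratio.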

How the data were processed

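The authors deposited UMI counts and read counts per gene and cell barcode, not normalized, with a per-cell table of labels. The submitters' processing notes name STAR 2.5.4b, featureCounts and GRCm38; the gene annotation, the use of strand and UMI collapsing have no mention in the sources used here, so reads of overlapping or antisense genes cannot be told apart. Of 24522 gene IDs, 24489 matched GENCODE M21. The 21 barcode columns without a chamber label were not used in comparisons.

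UMIs of kept cells were summed per label and divided by nuclear-encoded UMIs. Log2 ratios used a pseudocount of 5 CPM and genes with at least 30 UMIs. Folds in the text have no pseudocount, and their exact 95% intervals follow Clopper and Pearson, from the LA part of a gene's UMIs. No doublet caller was run. The computation was tested on simulated counts.

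Named genes were the 10 highest and 10 lowest with at least 50 CPM in the higher pool, the same side of 0 in 4 libraries and no cell above 50%. They also include the atrial, left atrial, sinus node, red cell and sex lists, and, from the remaining lists, 4 members by abundance and 2 by size of ratio. List members past 1.5-fold and genes with at least 300 UMIs were added after their values were seen. Members, lists and rules were chosen with earlier results of these data known. Alternatives were other totals (edgeR 4.0.16 in R 4.3.3 for TMM), cell weights, pseudocounts, minimums, limits and libraries left out. Tables were made with pandas 2.3.3 and numpy 2.4.6, intervals with scipy 1.17.1 and plots with matplotlib 3.10.9, under Python 3.11.15. Some genes that the rule names are not reported here.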

Additional observations from a re-analysis of the deposited data

Results flagged for a closer look

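In 10 of 142 sets of 4 within-library log2 ratios (LA over RA), 1 library lay beyond the 95% limit for its gap to the nearest of the others. Chance flags about 5% of such sets. The values were 5.30 for Fech in library B, 3.34 for Plxna2 in A, 0.38 for Actn2 in D, 0.95 for Nebl in D, 0.49 for Etfa in A, -0.62 for Rplp0 in C, -0.99 for Rps6 in B, 1.39 for Fhl1 in C, 3.10 for Hspa1b in D and 0.52 for Slc25a4 in D. In every library a label had only 2 to 4 kept cells, where few UMIs of a less abundant gene can set such a value. The median ratio of the mitochondrially encoded list was above 0 in libraries A and B and below 0 in C and D, 1.37 apart on average. The red cell list was so too, 2.79 apart. Neither difference was tested, and plate rows swap between these pairs of libraries. The 21 barcode columns without a chamber label held 1 to 67 gene UMIs, 20 of them over 3.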

How the results depend on the processing

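No paired analysis was possible because the labels give LA and RA cells no replicate numbers and no result comes from a test; the 4 libraries hold both labels, and ratios within them are given as values. The count of genes higher in LA (877) was 1462 for the mean of within-library ratios, 1518 for read counts, 2361, 129 and 4653 for gene minimums of 10, 100 and no UMIs, and 1593 with no mesothelial limit. The count lower in LA (889) was 1905, 201 and 3065 for those gene minimums and 571 without the top cell of each gene. The red cell list's log2 ratio of summed shares (-0.20) was -0.28 over all gene UMIs, -0.12 with TMM, -0.50 with cells weighted equally, -0.97 for the mean of libraries, -0.094 for reads, -0.54, -0.38 and -0.12 for cell minimums of 2000, 10000 and 20000 UMIs, -0.47 with no mesothelial limit, -0.41 without cells over 2% red cell RNA and -0.43 without top cells. It was -0.26, -0.055, -0.78 and 0.0089 without library A, B, C and D in turn. The sarcomere median (-0.16) was 0.00090 with cells weighted equally, 0.14 for the mean of libraries, -0.42 with no mesothelial limit and 0.12 without library C. The median of all genes (-0.02) moved to 0.18 for the mean of libraries, 0.10 without top cells and 0.21 with no gene minimum. The shares higher and lower, 19.2% and 19.5%, were then 32.0% and 21.1%, 23.1% and 12.5%, and 27.6% and 18.1%. They were 29.0% and 17.2% with no mesothelial limit.

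Alternatives chosen after seeing the data gave, for the red cell list, -0.94 without the 2 deepest RA cells, 0.067 without cells over 60% mitochondrial RNA, -0.16 on a total without CT010467.1, 0.48 in libraries A and B only and 0.45 in C and D only. Within C and within D the LA share was the lower, and pooling the 2 libraries turned the sign. Of the nuclear-encoded UMIs there, LA had 43604 in C and 52618 in D, and RA had 301697 in C and 22901 in D. The sarcomere median was 0.084 without the 2 deepest RA cells and -0.010 in A and B only. The count higher in LA was 389 in C and D only. The median of all genes moved to -0.11 in C and D only, with 19.5% higher and 30.6% lower.

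Of 67 named genes past 1.5-fold, 49 kept their side in all 28 alternatives. The 67 include genes named because they lay on 1 side of 0 in 4 libraries. For these the mean of libraries could not cross 0, so the count of 49 was partly set by the choice of genes. The other 18 crossed 0 in 37 values, of 1876 for the 67 genes. For Slc25a37 these were 0.10 with reads, 0.88 at 20000 UMIs, 2.07 without cells over 2% red cell RNA, 0.13 without library B and 0.82 without D. Bpgm was at 0.38 at 20000 UMIs, 1.77 in A and B only and 0.19 in C and D only. Taken singly, Bpgm was at -3.90 in C and -1.80 in D, so pooling these 2 libraries turned its sign too. Xist was at 0.18 for the mean of libraries, 1.03 without C and 3.28 in A and B only. Fabp4 was at 0.30 at 20000 UMIs, 0.32 without cells over 2% red cell RNA and 0.78 in A and B only. Pecam1 was at -0.045 with cells weighted equally, -0.22 without C, -0.092 without the 2 deepest RA cells and -0.17 in A and B only. Without library C, Kcnip2 was at -0.058, Tcap at -0.019, Dusp1 at -0.27, Ankrd1 at 0.47 and Fhl1 at -0.14. In A and B only, Tcap was at -0.11, Ier2 at -0.10, Dusp1 at -0.50, Ankrd1 at 0.40 and Fhl1 at -0.068. In C and D only, Ddx3y was at -1.09, Ier5 at -1.64, Hspa1a at 0.016, H2-D1 at -1.51 and Cytl1 at -0.69. Kcnh2 was at 0.19 with cells weighted equally, Ier5 at -0.0013 for the mean of libraries, and without library A Cytl1 was at -0.64 and Gsn at -0.082. The cause was not tested. Ttn, Trdn, Malat1, Gja1, Jun and Actn2 were below 0, and CT010467.1, Camk1d, Map7d1 and Tecr above 0, under each alternative. All of these but Actn2 lay on 1 side of 0 in 4 libraries, so the mean of libraries could not turn them.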
